A study of Rattus norvegicus with 6 samples.

Results

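Neurotrophins are secreted growth factors that keep neurons alive and guide axon growth and myelination. Mature ligands bind Trk receptor tyrosine kinases, while the unprocessed proneurotrophins bind the p75 receptor (Ngfr) together with VPS10 domain receptors such as sortilin. After a peripheral nerve is cut, Schwann cells that have lost their axons are known for high p75 and for making neurotrophins. The 8 genes described here are the ligand genes Bdnf, Ntf3 and Ntf4, the receptor genes Ntrk2 (TrkB), Ntrk3 (TrkC) and Ngfr, and the VPS10 domain receptor genes Sort1 and Sorcs2. They were chosen by gene name, and all 8 were found among the 33713 genes of the deposited tables. Other genes of the ligand and Trk families were not analysed here.

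The libraries were made from sciatic nerve of 8-week-old female Sprague-Dawley rats, taken on day 4. In both groups a gap of about 6 mm had formed, and each nerve end was sewn 2 mm into a silicone tube of 10 mm. The ES group (n = 3) had received 1 h of electrical stimulation straight after the injury, and the control group (n = 3) none. Whether each sample is a separate animal is not stated in the labels, so p-values reflect only the spread among these libraries and this could be technical. They also do not say which stretch of the nerve was taken.

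Library totals ran from 14962319 to 17119144 counts. Markers of the labelled tissue were abundant in all 6 libraries: Sox10, a Schwann cell transcription factor, lay between 288 and 453 CPM (counts scaled by library total and TMM factor), and S100b, a calcium-binding protein of Schwann cells, between 1202 and 1912 CPM. Markers of neurons and of skeletal muscle were low. Rbfox3, a marker of neuronal nuclei, lay between 0 and 0.257 CPM, and Ckm, the muscle creatine kinase, between 0 and 0.240 CPM, while Tnnt3, a troponin of fast muscle, lay between 2.96 and 6.04 CPM. The 7 neuronal markers summed to 6.36 to 11.0 CPM in control and 5.87 to 6.29 CPM in ES, most of it from Prph and Avil. The 5 skeletal muscle markers analysed summed to 7.32 to 7.76 CPM in control and 4.68 to 6.96 CPM in ES, most of it from Tnnt3. The ES libraries thus lay below the control libraries for both sums, and the part of these markers in the results was not tested. Of the 3 muscle markers that passed the filter, 2 lay below 0 in log2 fold change. The other, Mylpf, was at 0.247, 0.328 and 0.771 CPM in control and 1.07, 0.839 and 1.77 CPM in ES.

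Among these genes the injured nerve was dominated by the p75 receptor. Per kilobase of transcript, Ngfr had the highest level, with a mean of 895 FPKM over the 6 libraries, and stood at position 58 among the 20925 genes with any count. Sorcs2 followed at 42.4 FPKM and Sort1 at 32.1 FPKM. The Trk receptors lay far lower, at 3.07 FPKM for Ntrk2 and 1.84 FPKM for Ntrk3. The ligands were lowest, at 0.743 FPKM for Ntf3, 0.384 FPKM for Bdnf and 0.0765 FPKM for Ntf4. In this order the ranges of neighbours over all libraries were separate from Ngfr down to Ntrk2 and between Ntrk3 and Ntf3. Those of Ntrk2 and Ntrk3 overlapped, although Ntrk2 was the higher in 6 of 6 libraries. The ranges of Ntf3 and Bdnf overlapped, as did those of Bdnf and Ntf4, and the first of each pair was the higher in 5 of 6 libraries. FPKM divides by the length in the table, which is 10685 bases for Ntrk2 and 3055 bases for Ntrk3, so the level of a gene transcribed in short isoforms is understated.

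**Figure D1:**
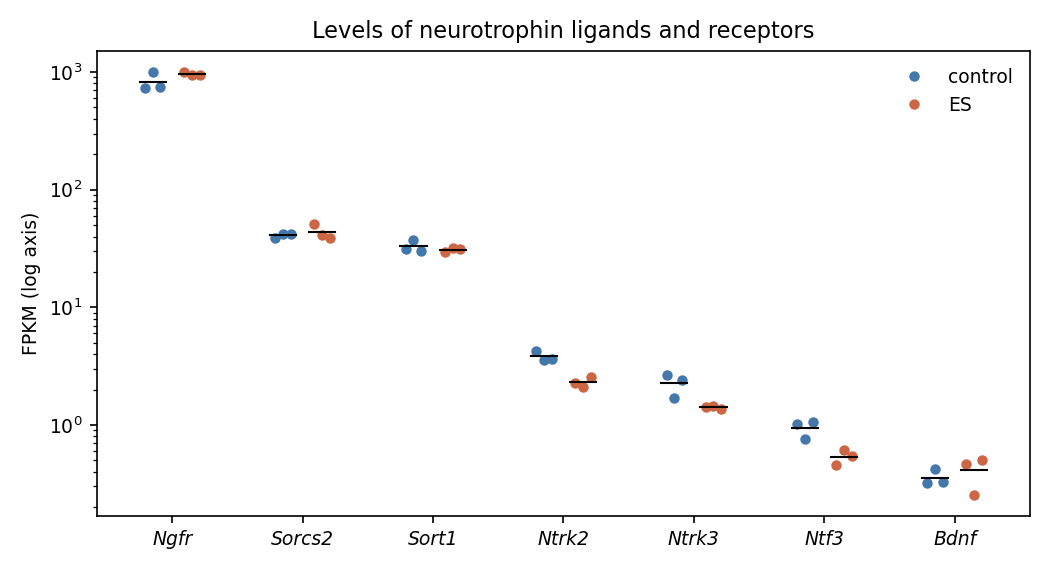
FPKM of 7 genes in each library on a log axis, with control in blue, ES in orange and a black line at each group mean; Ntf4 is left out because 3 libraries are at 0. Ngfr lies at 738 to 1004 FPKM in control and at 937 to 1003 FPKM in ES. Ntrk2, Ntrk3 and Ntf3 have all 3 ES libraries below all 3 control libraries.

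Ntrk2 fell in stimulated nerve and was the 1 gene of the group that passed the test over all genes; that its change differed from those of the others is not shown. It encodes TrkB, the receptor for brain-derived neurotrophic factor and neurotrophin 4. Control libraries held 736, 586 and 613 Ntrk2 counts, and ES libraries held 414, 379 and 416. In CPM this was 45.4, 38.4 and 39.4 in control against 24.5, 22.7 and 27.3 in ES, so every ES library lay below every control library. The group means were 41.0 ± 3.77 CPM for control and 24.9 ± 2.32 CPM for ES (SD, n = 3). The log2 fold change was −0.72 ± 0.11 (SE), 1.65-fold lower, with an edgeR quasi-likelihood adjusted p of 0.0366. Ntrk2 lies on the minus strand of chromosome 17 at 5933729 to 6244676 in the coordinates of the deposited tables, and no other gene of the table overlaps it. The gene makes both a full-length kinase receptor and truncated forms without the kinase, and a count per gene cannot separate them.

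Whether Ntrk2 passed the threshold varied with the test and with single libraries, while the size of its fall varied little. Over 16 alternatives the log2 fold change stayed between −0.80 and −0.54, and the adjusted p ran from 2.8e-05 to 0.207, with 7 of the 16 below 0.05. DESeq2 called it (adjusted p = 2.8e-05), while limma-voom (0.0807), edgeR with non-robust dispersions (0.0745) and limma on log2(FPKM + 1) and log2(FPKM + 0.1) (0.202 and 0.207) did not. With the replicate number as a block, which the data did not show to pair the samples, the edgeR adjusted p was 0.118. The edgeR adjusted p was 0.118 without control 1, 0.174 without control 3, 0.114 without ES 1 and 0.0718 without ES 2, and it remained below 0.05 without control 2 (0.0202) or ES 3 (0.0379).

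**Figure D2:**
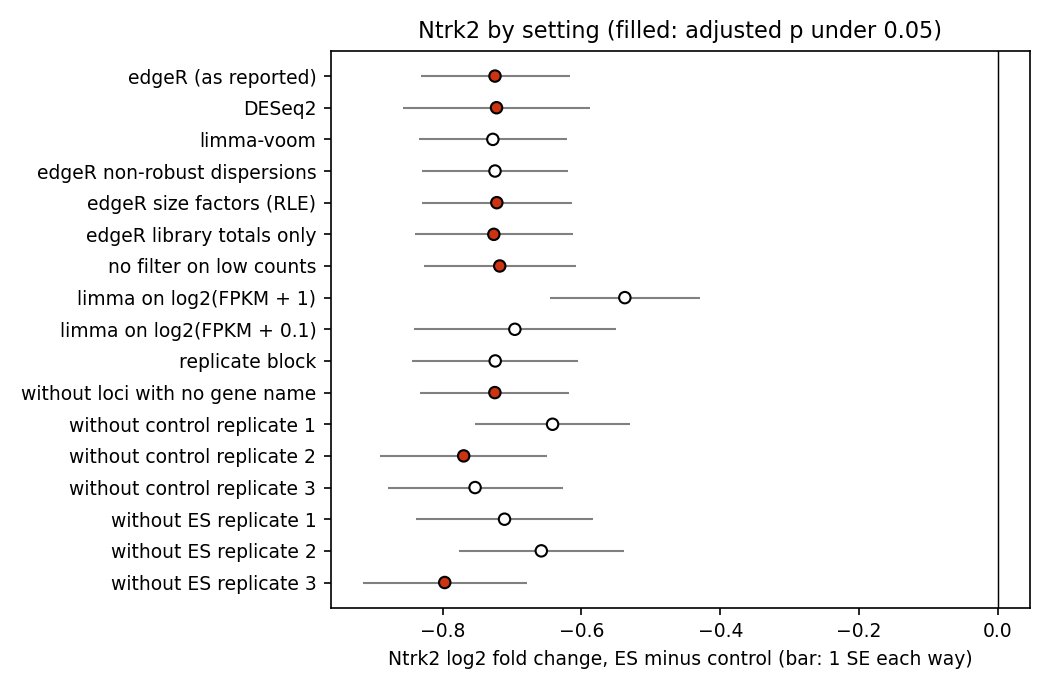
Ntrk2 log2 fold change (ES minus control, bars 1 SE each way) in the reported fit and under each alternative, with filled points where the adjusted p is under 0.05. All 17 values lie below 0, between −0.80 and −0.54, and 8 of them, the reported fit included, are filled.

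Over all 14828 genes tested, edgeR called 25, which is 0.169%, and 0.135% were called lower. Leaving out control 1 gave 5 calls, leaving out control 2 gave 152, leaving out control 3 gave 2, and leaving out ES 3 gave 41. Of the 8 neurotrophin genes, 7 passed the filter on low counts, and 1 of the 7 was called. At an unadjusted p under 0.05 edgeR gave 3 of the 7 lower, against 5.94% of all genes, and 0 higher, against 4.01%. The same 3, Ntrk2, Ntrk3 and Ntf3, were those whose ES libraries all lay below the control libraries, which held for 8.23% of all genes.

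Ntrk3 encodes TrkC, the receptor for neurotrophin 3. It was at 8.13, 5.24 and 7.45 CPM in control and at 4.39, 4.43 and 4.20 CPM in ES. The ES libraries lay close together and just under control 2, the lowest of the control libraries. The log2 fold change was −0.68 ± 0.21 (SE), nearly the size of that of Ntrk2, but the edgeR adjusted p was 0.283, and DESeq2 gave 0.249. Its approximate 95% interval, 1.96 SE to each side, ran from −1.09 to −0.26. Ntrk3 was counted with 64 to 132 reads per library, against 379 to 736 for Ntrk2. The ratio of Ntrk3 to Ntrk2 in FPKM was 0.627, 0.478 and 0.662 in control and 0.625, 0.683 and 0.538 in ES, so the groups overlapped. The log2 ratio differed by 0.07 between the groups (exact permutation test, two-sided, p = 0.7, adjusted p = 0.7 over the 3 ratios tested; 3 against 3 libraries cannot go below 0.1). Leaving out control 2 or ES 2 turned its sign, to −0.073 and −0.0077.

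Of the ligands, Ntf3 and Bdnf were low and Ntf4 was barely detected. Ntf3 encodes neurotrophin 3, the ligand of TrkC, which Schwann cells are known to secrete. It held 26, 18 and 26 counts in control and 12, 16 and 13 counts in ES, which is 1.60, 1.18 and 1.67 CPM against 0.711, 0.958 and 0.854 CPM. All ES libraries were lower, and the log2 fold change was −0.81 ± 0.36 (SE), with an edgeR adjusted p of 0.485. With so few reads the approximate 95% interval was wide, from −1.52 to −0.11. The largest change in size among the 7 genes was thus also the least precise.

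Bdnf encodes brain-derived neurotrophic factor, the main ligand of TrkB, whose transcription in neurons is known to follow electrical activity. Its counts were 32, 39 and 31 in control and 48, 26 and 47 in ES, or 1.97, 2.56 and 1.99 CPM against 2.85, 1.56 and 3.09 CPM. ES 1 and ES 3 were the highest of the 6 libraries and ES 2 was the lowest. The log2 fold change was 0.20 ± 0.32 (SE; edgeR adjusted p = 0.879), and the approximate 95% interval from −0.44 to 0.83 covers falls and rises alike. Without ES 2 the value was 0.45, and without ES 3 it was 0.02 (adjusted p = 0.706 and 0.997, the lowest and highest of its alternatives).

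Ntf4, which encodes neurotrophin 4, another TrkB ligand, held 10 counts in all libraries together. Of these, 7 were in control 1, and 0 were in control 2, control 3 and ES 3. A count of 0 allows a level of up to 0.193 to 0.197 CPM in those libraries, taking 3 counts as the limit. Ntf4 did not pass the filter, and a difference between the groups was not detectable at this depth (exact permutation test on CPM, two-sided, p = 1).

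The ratio of Bdnf to Ntf3, both per length, was 0.316, 0.557 and 0.306 in control and 1.03, 0.418 and 0.929 in ES. ES 1 and ES 3 lay above control, and ES 2 lay between the control libraries. The log2 ratio was higher by 0.96 in ES (exact permutation test, two-sided, p = 0.2, adjusted p = 0.3 over the 3 ratios).

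Upstream of the 5 genes with a promoter window, only 1 window, at Bdnf, held an element that was searched for. Ntrk2, Ntrk3 and Ngfr had no window and were not searched. RefSeq promoter windows were found for 5 of the 8 genes (build GRCr8, which differs from that of the count tables), and the 250 bases before each start were searched on both strands for the cAMP response element TGACGTCA, its variant TCACGTCA and the E-box CACGTG; none of these overlaps another. Bdnf has 6 annotated starts, and the counts per gene sum over all of them. The variant TCACGTCA was found in 1 of the 12 windows of these genes, at Bdnf, and in 0.350% of all 33469 windows; TGACGTCA and CACGTG, held by 1.59% and 5.59% of all windows, were found in 0 of the 12. Some of these windows overlap each other, as their starts lie close together. The Bdnf window with the variant (chr3:116637608-116637857, plus strand) is shown because it holds the element through which CREB is known to drive Bdnf, and that of the first Ntf3 start (chr4:160670624-160670873, minus strand) because Ntf3 is the ligand gene with the larger fold change. Capitals mark TCACGTCA, whose first base lies 38 bases before the start.
Bdnf: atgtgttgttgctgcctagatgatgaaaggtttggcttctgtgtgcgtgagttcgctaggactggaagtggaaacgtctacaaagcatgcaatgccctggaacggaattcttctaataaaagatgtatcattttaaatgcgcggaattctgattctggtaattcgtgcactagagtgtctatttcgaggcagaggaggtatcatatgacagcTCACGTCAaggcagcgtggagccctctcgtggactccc
Ntf3: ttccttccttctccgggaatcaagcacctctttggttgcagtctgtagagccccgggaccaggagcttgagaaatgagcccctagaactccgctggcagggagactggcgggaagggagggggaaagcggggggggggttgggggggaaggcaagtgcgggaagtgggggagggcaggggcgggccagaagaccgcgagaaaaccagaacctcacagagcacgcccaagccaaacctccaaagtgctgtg

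Ngfr, the p75 receptor, did not pass the test between the groups. Its counts were 39102, 49978 and 37946 in control and 55186, 50988 and 46891 in ES. In CPM it stood at 2410, 3275 and 2437 in control and at 3271, 3054 and 3079 in ES. Control 2 was the highest of all 6 libraries, and control 1 and control 3 were the lowest, so the groups overlapped. The log2 fold change was 0.21 ± 0.12 (SE), with an edgeR adjusted p of 0.593 and an approximate 95% interval from −0.02 to 0.44. Without control 2 it was 0.37 (adjusted p = 0.0648, with alternatives from 0.0648 to 0.877). Ngfr lies on chromosome 10 at 83389847 to 83408061, minus strand.

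Within each library, p75 was compared with TrkB. The ratio of Ngfr to Ntrk2 in FPKM was 175, 280 and 203 in control and 438, 442 and 370 in ES, with no overlap. The log2 ratio was higher by 0.95 in ES, 1.93-fold (7.75 ± 0.35 in control and 8.70 ± 0.14 in ES, SD, n = 3). The exact permutation test, two-sided, gave p = 0.1, the smallest that 3 against 3 libraries allow, and an adjusted p of 0.3 over the 3 ratios. Of the summed FPKM of Ngfr, Ntrk2 and Ntrk3, Ngfr made up 99.1% to 99.5% in control and 99.6% in each ES library.

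The VPS10 domain receptors did not pass the test. Sort1 encodes sortilin, which binds proneurotrophins with p75 and sorts proteins within the cell. It was at 212, 253 and 205 CPM in control and 197, 215 and 209 CPM in ES, with a log2 fold change of −0.11 ± 0.09 (SE; edgeR adjusted p = 0.749). Sorcs2, a related receptor that also pairs with p75, was at 254, 276 and 275 CPM in control and 334, 267 and 251 CPM in ES. ES 1 was the highest library and ES 3 the lowest, and the log2 fold change of 0.08 ± 0.11 (SE; edgeR adjusted p = 0.846) became −0.046 without ES 1 (adjusted p = 0.958, with alternatives from 0.669 to 0.972). The approximate 95% intervals were −0.29 to 0.07 for Sort1 and −0.12 to 0.29 for Sorcs2. Psapl1, on the other strand within Sorcs2, held 3 to 14 counts, against at least 3827 for Sorcs2.

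**Figure D3:**
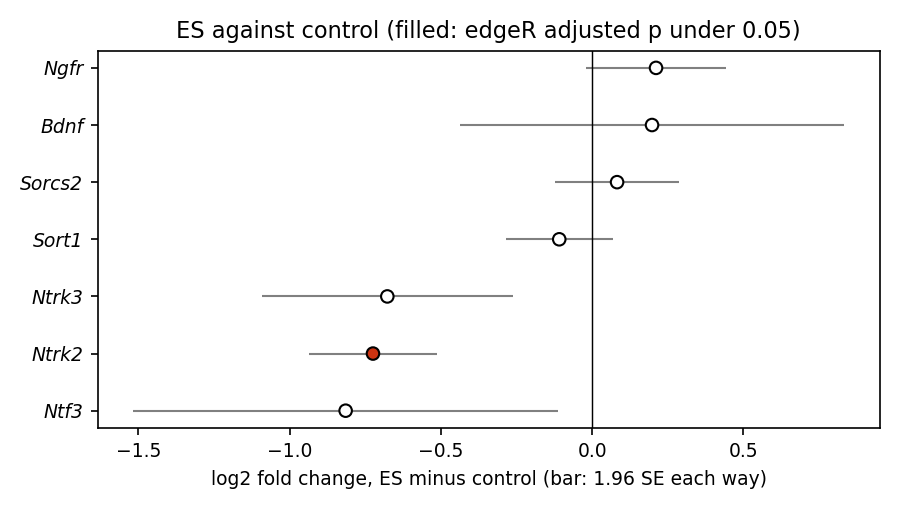
Log2 fold change of the 7 tested genes (ES minus control), with bars of 1.96 SE to each side and a filled point where the edgeR adjusted p over all genes is under 0.05. Ntrk2, Ntrk3 and Ntf3 lie between −0.81 and −0.68, and the other 4 genes lie between −0.11 and 0.21.

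In a bulk sample, fewer cells of a type and less RNA per cell cannot be told apart, and markers of several cell types moved with these genes. Ngfr and the summed Schwann cell lineage markers were both lowest in control 1 and control 3. Their highest libraries differed, control 2 for Ngfr and ES 2 for the markers. A separate list of 6 repair Schwann cell markers summed to 1114, 1389 and 1152 CPM in control and 1365, 1274 and 1200 CPM in ES. That sum, like Ngfr, was highest in control 2 and lowest in control 1 and control 3. Of these 6 markers, 3 lay above 0 in log2 fold change and 3 below, with 0 called, and their relation to Ngfr was not tested. The 4 lineage markers (Sox10, S100b, Erbb3 and Cdh19) summed to 2388, 3021 and 2444 CPM in control and 3074, 3179 and 3033 CPM in ES, and 3 of the 4 had a log2 fold change above 0, with 0 called. Per 1000 CPM of these markers, Ngfr was at 1009, 1084 and 997 CPM in control and 1064, 961 and 1015 CPM in ES. The groups overlapped, and the log2 difference was −0.02, given without a test, as the ratio was chosen and the list shortened after seeing the data. As the sum was itself higher in ES, dividing by it lowers the difference in any case. The largest part of the sum came from S100b, at 1222 of 2388 CPM in control 1. Its log2 fold change was 0.41, against 0.20 for Sox10, 0.04 for Cdh19 and −0.02 for Erbb3. The difference in Ngfr would thus change sign against S100b, whose fold change was the larger, and shrink against Sox10. Against Cdh19 and Erbb3 it would shrink little or not at all.

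Ntrk2, Ntrk3 and Ntf3 were low in the same libraries as markers of connective tissue and vessels. The 7 fibroblast markers summed to 22080 to 29380 CPM in control and 19370 to 21610 CPM in ES, with 6 of 7 below 0 in log2 fold change and 0 called. Control 2, the control library lowest in Ntrk2, Ntrk3 and Ntf3, was also the lowest of its group for fibroblast markers. The 7 pericyte and smooth muscle markers summed to 694 to 812 CPM in control and 516 to 551 CPM in ES, with 6 of 7 below 0 and 1 called, Myh11. The endothelial markers, 6 analysed, summed to 482 to 604 CPM in control and 392 to 420 CPM in ES, with 6 of 6 below 0 and 1 called, Kdr. The 10 adipocyte markers summed to 957 to 1373 CPM in control and 155 to 519 CPM in ES, with 10 of 10 below 0 and 0 called. No marker of these 4 lists was at 0 in all libraries. Macrophage markers went the other way, summing to 767 to 853 CPM in control and 912 to 1096 CPM in ES, with 8 of 8 above 0 and 0 called. Of all genes tested, 49.3% lay below 0 in log2 fold change and edgeR called 0.169%. The part of the adipocyte and macrophage markers in the levels of Ntrk2, Ntrk3 and Ntf3 was not tested.

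Relative to the summed markers the differences became smaller, but the lists were not uniform. Each of the sums used was itself lower in ES, so dividing by it makes a fall smaller in any case. No conclusion is drawn from the smaller differences. Most of the fibroblast sum came from Col1a1 and Col3a1, at 12030 and 11660 of 29300 CPM in control 1. The fibroblast markers Pdgfra and Dcn had log2 fold changes of 0.06 and −0.01, and Cspg4 of the pericyte list one of 0.18, so the difference in Ntrk2 would not shrink against these genes. Per 1000 CPM of fibroblast markers, Ntrk2 was at 1.34 to 1.74 CPM in control and 1.05 to 1.32 CPM in ES, a log2 difference of −0.35 without overlap. Against endothelial markers the log2 difference was −0.29, also without overlap. Against pericyte and smooth muscle markers it was −0.19, and the groups overlapped, with 48.7 to 55.9 CPM in control against 43.3 to 49.6 CPM in ES. The exact permutation test, two-sided, gave p = 0.1, 0.1 and 0.2 for these 3 ratios. Ntrk3 differed by −0.28 per fibroblast markers and by −0.12 per pericyte and smooth muscle markers (exact p = 0.1 and 0.5). Ntf3 differed by −0.44 and −0.28 (exact p = 0.1 and 0.2). These 8 ratios, that of Ngfr included, were chosen after seeing the data. The p-values given are not adjusted, cannot go below 0.1 and are descriptive only.

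**Figure D4:**
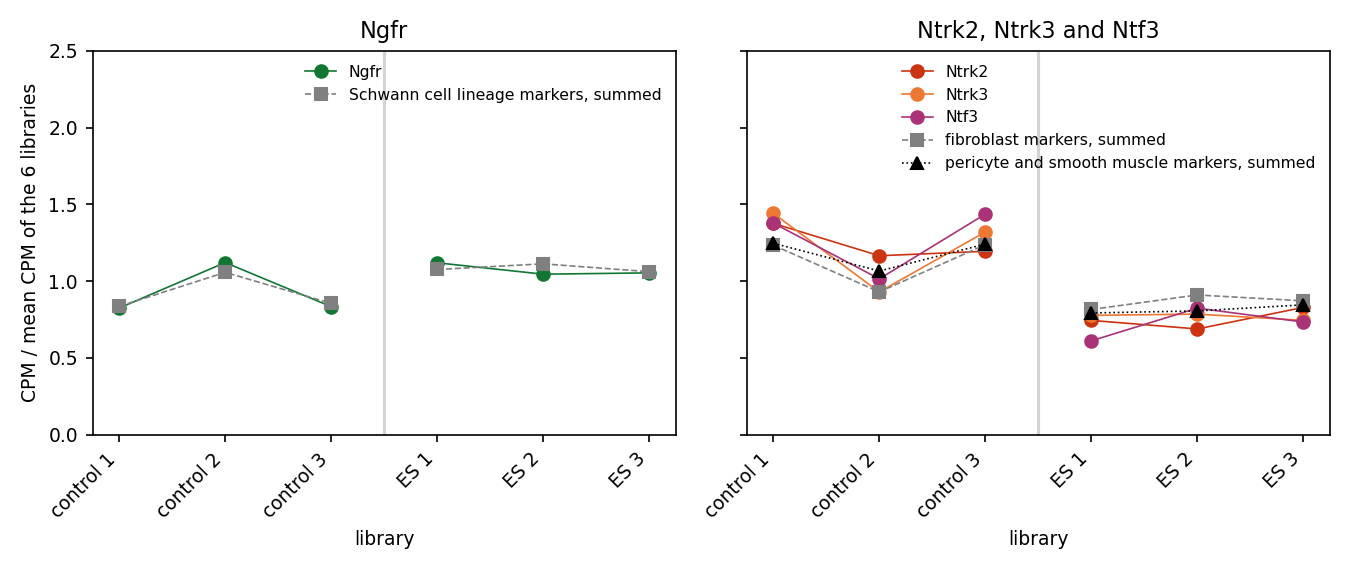
CPM of each gene and summed CPM of marker lists in the 6 libraries, each divided by its own mean over the libraries. Left, Ngfr and the Schwann cell lineage markers, both low in control 1 and control 3. Right, Ntrk2, Ntrk3 and Ntf3 with the fibroblast and the pericyte and smooth muscle markers, all lower in the ES libraries.

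The genes with profiles most like these differed from member to member. Likeness was measured as the root mean square difference of log2 CPM, centred on each gene's mean, over the 6 libraries. The candidates for each member were 9624 or 9625 protein-coding genes of at least 10 CPM, so a close profile is no test of a relation. Nearest to Ntrk2 were Amigo2 (0.0926), an adhesion protein, Hmcn1 (0.0928), the matrix protein hemicentin, and Nr1d2 (0.104), a repressor of the circadian clock, while Ntrk2 itself spread by 0.372. Amigo2 was at 14.9, 14.1 and 12.0 CPM in control and 7.17, 7.19 and 8.87 CPM in ES. Hmcn1 was at 32.5, 29.8 and 33.1 CPM in control and 18.5, 18.8 and 23.6 CPM in ES. Nearest to Ntrk3 were Loxl2 (0.0402), which crosslinks collagen, Ext1 (0.0407), which builds heparan sulfate, and Zfp423 (0.0660), a zinc finger transcription factor. Nearest to Ntf3 were F11r (0.0619), Cyb561 (0.0654) and Fmod (0.0658), of which Fmod encodes the matrix proteoglycan fibromodulin. None of these 9 genes was called by edgeR, with adjusted p-values from 0.0772 to 0.225.

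Around the receptors, the genes that carry and shape the signal were tested as 5 lists, in which edgeR called 0 of 60 tested genes. At an unadjusted p under 0.05 it gave 6 higher and 2 lower, against 4.01% and 5.94% of all genes, and DESeq2 called 1, Plat, against 2.07% of all genes. The median log2 fold change of the 60 was 0.04, and that of all genes tested was 0.0025.

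None of the adaptors that dock on Trk receptors passed the test. Of 17 tested, 9 lay above 0 and 8 below; the median log2 fold change was 0.0060, and 0 had an unadjusted p under 0.05. The lowest p belonged to Shc2, a neuronal Shc adaptor, at 33.8, 42.1 and 42.3 CPM in control and 50.0, 44.6 and 43.5 CPM in ES (adjusted p = 0.523). Kidins220, a scaffold for Trk receptors, had group means of 245 ± 8.28 CPM (control) and 225 ± 7.16 CPM (ES), and Plcg1, the phospholipase that Trk receptors activate, of 79.5 ± 5.76 and 74.8 ± 2.04 CPM (SD, n = 3).

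Of 17 partners and cleaving enzymes of p75, 11 lay above 0, with a median of 0.07, and at an unadjusted p under 0.05 there were 3 higher and 0 lower. Lingo1, a co-receptor of p75 in the receptor for myelin inhibitors, was at 4.07, 4.46 and 4.94 CPM in control and 7.29, 7.07 and 7.03 CPM in ES, without overlap. Its log2 fold change was 0.67 ± 0.18 (SE), with an edgeR adjusted p of 0.21. Tnfrsf19, a p75-related receptor that can replace p75 in that complex, had a log2 fold change of 0.44 ± 0.18, and Adam17, the protease that sheds p75, one of 0.17 ± 0.07 (SE; edgeR adjusted p = 0.447 and 0.466). Among the other VPS10 domain receptors, Sorcs1 had group means of 49.3 ± 4.00 CPM (control) and 48.5 ± 2.40 CPM (ES; SD, n = 3).

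Of 13 tested enzymes and inhibitors of proneurotrophin cleavage, 9 lay above 0, with a median of 0.09. Plat, tissue plasminogen activator, which makes the plasmin that can cleave proneurotrophins, was at 481, 507 and 455 CPM in control and 605, 635 and 585 CPM in ES. All ES libraries were higher, and the log2 fold change was 0.34 ± 0.08 (SE; edgeR adjusted p = 0.129, DESeq2 adjusted p = 0.0020). Pcsk6, a proprotein convertase, went the other way, from 46.1 ± 1.27 CPM in control to 36.2 ± 3.86 CPM in ES (SD, n = 3), without overlap (edgeR adjusted p = 0.221). Mmp9, a matrix protease, reached 51.4 CPM in ES 2, against 4.92 to 20.2 CPM elsewhere.

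Genes that neurotrophin signalling is known to induce showed no common direction. Of 12 tested, 8 lay above 0 and 4 below, with a median of 0.13. Spry4, a feedback inhibitor of receptor tyrosine kinases, was at 50.4, 45.2 and 46.6 CPM in control and 33.0, 40.1 and 38.7 CPM in ES, and its relative Spry2 was at 60.6, 69.4 and 62.9 CPM in control and 83.6, 73.0 and 74.1 CPM in ES. The groups overlapped for neither, but the directions were opposite. Their log2 fold changes were −0.35 ± 0.10 and 0.26 ± 0.09 (SE; edgeR adjusted p = 0.227 and 0.315). Junb, an immediate early transcription factor, had a log2 fold change of 0.33 ± 0.13 (SE; edgeR adjusted p = 0.419).

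**Figure D5:**
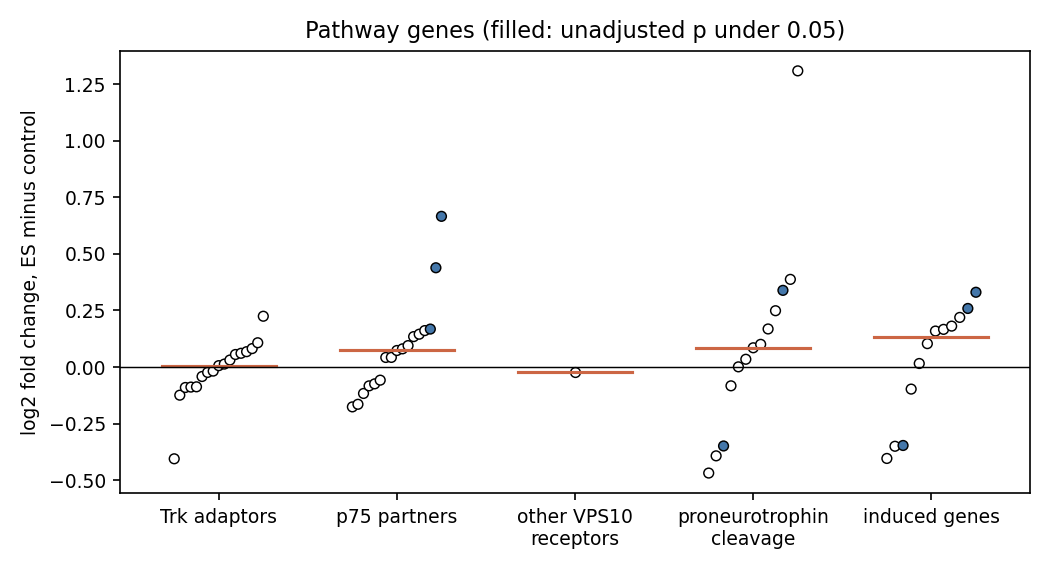
Log2 fold change (ES minus control) of each tested gene in the 5 pathway lists, with an orange line at each list's median and filled points at an unadjusted p under 0.05. The points lie between −0.47 and 1.31, the highest being Mmp9, and 8 of them are filled.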

How the data were processed

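The authors deposited whole-number read counts per gene and FPKM values for 6 libraries; their table of FPKM group means was not used for any value here. Per the submitters' processing notes the genome was rn7, but the tables hold 6890 clone names starting AABR07 and reach position 282724300 on chromosome 1, which resemble an earlier rat build, so the build of the gene coordinates is not settled. Aligner, counter and strand setting: not given in the sources used here.

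Counts were tested with edgeR 4.0.16 under R 4.3.3 by its quasi-likelihood method (robust, filterByExpr, TMM, two-sided, Benjamini-Hochberg over all 14828 genes tested, called under 0.05). Loci without a gene name (830) were kept, as they have identifiers. Alternatives used DESeq2 1.42.0, limma 3.58.1, other scalings, filters and units, and left out each library. Scripts were tested on simulated counts. SE is the absolute log2 fold change over the square root of F. Libraries of a group differed beyond sampling noise (chi-square per gene 11.1 to 19.1). Intervals and floors cover the model or counting error only.

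A few listed marker genes are not reported here and were left out of their sums. The members, lists and rules were chosen with earlier results of these data known. Named are the 8 genes, up to 3 genes of lowest p per pathway list, and the nearest profiles. Cell type markers named outside that rule were chosen after their values were seen.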

Additional observations from a re-analysis of the deposited data

How the results depend on the processing

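The count of all called genes, 25, became 301 with DESeq2, 2 with limma-voom, 2 with non-robust dispersions, 39 with library totals only, 132 when no filter was applied, 3 and 2 with limma on log2(FPKM + 1) and log2(FPKM + 0.1), and 2 to 152 when each library was left out (5 without control 1, 152 without control 2, 2 without control 3, 41 without ES 3). The neurotrophin genes called, 1, became 0 with limma-voom, non-robust dispersions and both FPKM fits, and 0 to 1 when each library was left out. Ntrk2 stayed below 0 throughout, with −0.73 in limma-voom (adjusted p = 0.0807), −0.72 with non-robust dispersions (0.0745), −0.54 and −0.70 on log2(FPKM + 1) and log2(FPKM + 0.1) (0.202 and 0.207), and −0.80 to −0.64 when each library was left out. The pathway genes called, 0, became 1 with DESeq2. The cause of these losses was not tested. Sorcs2 reversed without ES 1, to −0.046 (range −0.046 to 0.16), and the log2 ratio of Ntrk3 to Ntrk2 ran from −0.073 to 0.16 when each library was left out, with −0.073 without control 2 and −0.0077 without ES 2. Bdnf, Ntf3, Ntrk3, Ngfr and Sort1 kept their direction in all 16 alternatives and were called in none.

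The replicate numbers were not shown to pair the samples. Deviations of same-numbered libraries from their group means correlated at −0.143, −0.152 and −0.0398, and those of differently numbered libraries at −0.0435 to 0.178. With only 3 libraries per group, whose deviations are tied to each other, these values cannot exclude a pairing. With the replicate block edgeR called 11 genes, of which 0 were neurotrophin genes, and Ntrk2 was at −0.72 (adjusted p = 0.118). Depth limits Ntf4, Ntf3 and Bdnf, each with 48 counts or fewer in every library.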

Other observations

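ES 2 stood apart in some genes. Mmp3, a matrix protease that can cleave proneurotrophins and that did not pass the filter on low counts, reached 2.40 CPM there, against 0.0593 to 0.185 CPM elsewhere. The 5 neutrophil markers summed to 163 CPM there, against 13.6 to 21.7 CPM in the remaining libraries, most of it from S100a8, S100a9 and Csf3r (45.1, 91.2 and 24.4 CPM). Mpo, also on that list, was low in every ES library, not only in ES 2. ES 1 held 0.0593 CPM, ES 2 0.719 CPM and ES 3 0.854 CPM, against 5.90 to 10.9 CPM in control. The log2 fold change of Mpo was −3.87 (edgeR adjusted p = 0.0913). The 4 erythrocyte markers summed to 2960 CPM in ES 2, against 207 to 466 CPM elsewhere. Bdnf had its lowest level in that library, 1.56 CPM.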
